A study of Homo sapiens with 4 samples.

Results

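Iron uptake, storage and export were examined through 10 genes in the RNA of HCC1954 cells, an established human breast cancer cell line. The genes were chosen by name, as carriers, stores and regulators of cellular iron together with the lipid peroxide reductase GPX4, and all 10 were found among the 58735 genes of the deposited count table. The choice was made with earlier results of these data known. Total RNA was sequenced from 2 samples with a scrambled control hairpin (shCON) and 2 samples with a hairpin against ZDHHC15 (shZDHHC15), both in lentiviral plasmid vectors. ZDHHC15 encodes a palmitoyltransferase, an enzyme that attaches palmitate to cysteines of other proteins. The design text speaks of stable knockdown, while the treatment notes give transient transfection of the plasmids with harvest after 36 h. Neither says whether the numbered samples were separate cultures or carried different hairpins. The p-values therefore measure the spread between these samples, which may be technical. Between 17560982 and 19118704 reads were counted per sample. ZDHHC15 itself had counts of 17617 and 15716 under the control hairpin and of 0 in both samples under its own hairpin, where a count of 0 allows up to 3 counts (counting error only). A hairpin usually lowers a transcript without removing it, so a fall from a mean of 949 CPM (counts relative to library size) to 0 counts is unusual. What lies behind it was not tested, and the shZDHHC15 samples are called depleted by their label and this count.

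Cells take up iron mainly as transferrin, which the transferrin receptor (TFRC) carries into endosomes, where the ferrireductase STEAP3 reduces the iron and the divalent metal transporter SLC11A2 (DMT1) moves it to the cytosol. Surplus iron is stored in ferritin, a shell of heavy (FTH1) and light (FTL) chains that the cargo receptor NCOA4 delivers to lysosomes when iron is needed, and ferroportin (SLC40A1) exports it. The iron regulatory proteins, encoded by ACO1 and IREB2, bind hairpins called iron responsive elements when iron is scarce. Such binding blocks translation where the hairpin lies in the 5′ UTR and stabilizes the transcript where it lies in the 3′ UTR.

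The elements of the members are shown because iron regulatory proteins act through them. The transcripts of GENCODE release 29 (GRCh38) were searched for a 27-base hairpin with the loop CAGTGN (N other than G), 5 base pairs next to the loop, an unpaired C and at least 4 of 5 pairs below it, with G-T pairs allowed. It was found in 20 of 19684 protein-coding genes (0.102%), and 4 of these were members. The loop is in capitals, and each sequence runs 5′ to 3′ along the transcript.

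FTH1, 5′ UTR, chr11:61967575-61967601, minus strand: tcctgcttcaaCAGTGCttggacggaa

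FTL, 5′ UTR, chr19:48965336-48965362, plus strand: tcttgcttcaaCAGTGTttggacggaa

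SLC40A1, 5′ UTR, chr2:189580662-189580688, minus strand: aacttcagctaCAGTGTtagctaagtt

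TFRC, 3′ UTR, chr3:196050980-196051006, minus strand: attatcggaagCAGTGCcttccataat

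TFRC, 3′ UTR, chr3:196050576-196050602, minus strand: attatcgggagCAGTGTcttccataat

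TFRC, 3′ UTR, chr3:196050511-196050537, minus strand: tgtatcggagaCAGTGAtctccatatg

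TFRC, 3′ UTR, chr3:196050464-196050490, minus strand: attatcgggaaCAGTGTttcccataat

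A separate search required 1 further unpaired base on the 3′ side of the stem. This 28-base hairpin was found in 42 genes (0.213%), with SLC11A2 the only member among them.

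SLC11A2, 3′ UTR, chr12:50988269-50988296, minus strand: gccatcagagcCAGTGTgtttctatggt

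The SLC11A2 hairpin is carried by 5 of its 18 protein-coding transcripts, and counts per gene do not separate transcripts with the hairpin from those without it. In SLC40A1 the hairpin is in 1 of 5 protein-coding transcripts. No match was found in the other members, which says only that this pattern is not in these transcripts.

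Of the 10 genes, SLC11A2, NCOA4, FTH1 and TFRC were higher and GPX4 was lower in ZDHHC15-depleted cells at an adjusted p under 0.05 (quasi-likelihood test of edgeR, Benjamini-Hochberg over all tested genes). FTL, SLC40A1, STEAP3, IREB2 and ACO1 did not pass. All 10 genes passed the filter on low counts. Levels are given as CPM, counts relative to library size after TMM (trimmed mean of M-values) scaling. Over all 15817 tested genes 42.0% passed the same limit, 21.7% as higher and 20.3% as lower, so 5 of 10 members is a share near the background. The median log2 fold change of the members was 0.21, beside 0.02 over all tested genes. In bulk RNA, fewer cells of a type and less RNA per cell cannot be told apart.

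**Figure D1:**
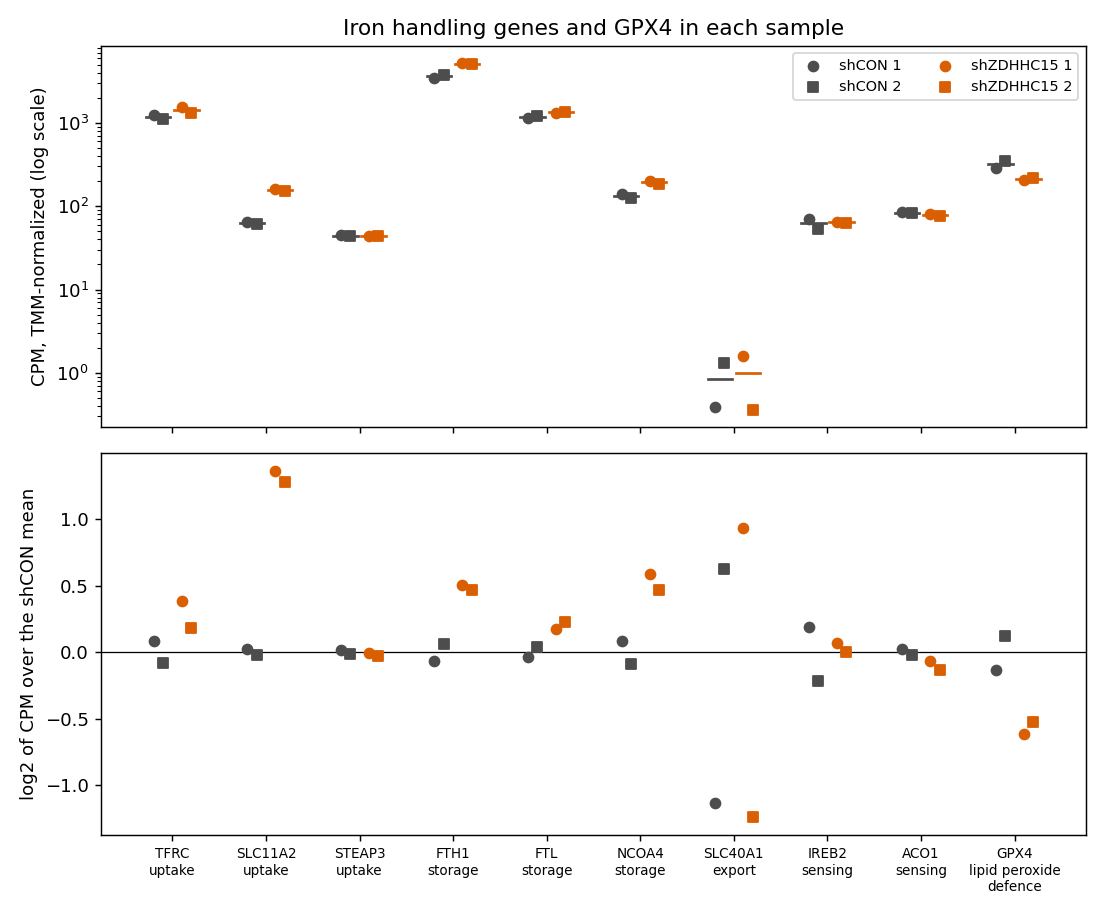
Upper panel: level of each gene in TMM-scaled CPM (log axis) in every sample, with a line at each group mean. Lower panel: the same values as log2 of the CPM over the shCON mean. The shZDHHC15 samples of SLC11A2 stand highest above their control samples (162 and 153 against 63.8 and 61.9 CPM), those of GPX4 lie below theirs, and the samples of SLC40A1 scatter within each group.

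Among the uptake genes, SLC11A2 (ENSG00000110911, chromosome 12, 50979401 to 51028566, minus strand) changed most. Its level was 63.8 and 61.9 CPM in the shCON samples and 162 and 153 CPM in the shZDHHC15 samples. The groups lay far apart compared with the gap inside each, and the mean rose from 62.9 ± 1.38 to 157 ± 6.62 CPM (SD, n = 2), 2.50-fold. The log2 fold change was 1.32 (SE 0.0970, adjusted p = 7.67e-08), higher than that of 94.7% of all tested genes. It stayed between 1.28 and 1.40 under every alternative and with each sample left out.

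TFRC (ENSG00000072274, chromosome 3, 196027183 to 196082189, minus strand) was measured at 1244 and 1109 CPM in shCON cells and 1540 and 1332 CPM in ZDHHC15-depleted cells. The lower depleted sample stood only a little above the higher control sample. The mean rose 1.22-fold, with a log2 fold change of 0.29 (SE 0.0959, adjusted p = 0.0258). This call rested on single samples and on the settings. Without shCON replicate 2 the log2 fold change was 0.20 (adjusted p = 0.116), and without shZDHHC15 replicate 1 it was 0.18 (adjusted p = 0.363). The adjusted p was 0.0507 with upper-quartile factors and 0.117 without a filter on low counts.

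STEAP3 (ENSG00000115107, chromosome 2, 119223831 to 119265652, plus strand) held 44.9 and 44.0 CPM in shCON cells and 44.3 and 43.6 CPM in ZDHHC15-depleted cells, and the groups overlapped. The log2 fold change was -0.02, with a 95% interval from -0.24 to 0.21 (adjusted p = 0.921). Its sign turned to 0.06 when library size alone set the scale. An antisense gene, STEAP3-AS1, shares 500 of its exonic bases and received at most 7 counts in a sample.

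Among the storage genes, FTH1 (ENSG00000167996, chromosome 11, 61959718 to 61967660, minus strand) was the most abundant member in every sample. It was measured at 3502 and 3819 CPM in shCON cells and at 5209 and 5069 CPM in ZDHHC15-depleted cells. Both depleted samples lay well above both controls, and FTH1 moved from rank 10 among all genes by count in each shCON sample to ranks 2 and 4. The mean rose from 3660 ± 224 to 5139 ± 98.8 CPM (SD, n = 2), 1.40-fold, with a log2 fold change of 0.49 (SE 0.0851, adjusted p = 3.44e-04).

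Reads of FTH1 could be shared with near-identical copies and with an overlapping gene. Of 25 annotated FTH1 pseudogenes, 14 received a count, and their counts summed to 607 and 645 with shCON and to 1052 and 1099 with shZDHHC15, between 0.951% and 1.10% of the FTH1 count. The most abundant of them, FTH1P7, rose with FTH1 (log2 fold change 0.81, SE 0.141, adjusted p = 3.33e-04). With the pseudogenes added, the log2 fold change of FTH1 was again 0.49. BEST1, on the opposite strand, covers 62.4% of the exonic bases of FTH1 and had counts of 13 and 21 with shCON and of 30 and 33 with shZDHHC15. The strand setting of the counting is not given in the sources used here.

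FTL (ENSG00000087086, chromosome 19, 48965301 to 48966878, plus strand) was measured at 1143 and 1202 CPM in shCON cells and 1323 and 1369 CPM in ZDHHC15-depleted cells. The groups did not overlap, but the difference did not pass the threshold, with a log2 fold change of 0.20 (SE 0.0840, unadjusted p = 0.0316, adjusted p = 0.0701 from edgeR) and a 95% interval from 0.02 to 0.38. With library size alone as the scale it did pass (log2 fold change 0.27, adjusted p = 0.00904). Its pseudogenes held at most 0.168% of the FTL count in any sample.

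The balance of heavy to light chain transcripts was compared within samples, on counts per kb of gene length, so that library size drops out. Protein was not measured. The level of the ratio rests on the listed gene lengths, 2030 bases for FTH1 and 878 bases for FTL. The FTH1:FTL ratio was 1.33 and 1.37 in the shCON samples and 1.70 and 1.60 in the shZDHHC15 samples. The lower depleted sample stood above the higher control, and the mean difference was 0.29 on the log2 scale. The exact two-sided permutation test gave p = 0.333, the smallest that 2 against 2 samples allow (0.667 adjusted over 2 ratios). The TFRC:FTH1 ratio, which sets the receptor transcript against the heavy chain transcript, was 0.0914 and 0.0748 in shCON and 0.0761 and 0.0677 in shZDHHC15 samples. These groups overlapped, with a mean difference of -0.20 on the log2 scale (exact two-sided permutation p = 0.667, adjusted p = 0.667).

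NCOA4 (ENSG00000266412, chromosome 10, 46005088 to 46030714, minus strand), the receptor for autophagy of ferritin, rose alongside FTH1. It was measured at 142 and 126 CPM in shCON cells and 201 and 185 CPM in ZDHHC15-depleted cells, with no overlap between groups. The mean rose from 134 ± 11.01 to 193 ± 11.5 CPM (SD, n = 2), 1.44-fold, with a log2 fold change of 0.53 (SE 0.0977, adjusted p = 5.65e-04).

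SLC40A1 (ENSG00000138449, chromosome 2, 189560579 to 189583758, minus strand), which encodes the exporter ferroportin, had few counts. Its counts were 7 and 22 with shCON and 30 and 7 with shZDHHC15, or 0.384 and 1.30 CPM against 1.61 and 0.357 CPM. Each group held a low and a high sample. No difference beyond the spread between samples was detected, with a log2 fold change of 0.23 and a 95% interval from -1.12 to 1.57 (adjusted p = 0.804). Leaving out a sample moved the value between -1.20 and 1.31.

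The iron sensors did not pass the threshold. IREB2 (ENSG00000136381, chromosome 15, 78437431 to 78501456, plus strand), which encodes iron regulatory protein 2, was measured at 71.1 and 53.7 CPM in shCON cells and 65.3 and 62.5 CPM in ZDHHC15-depleted cells. Both depleted samples lay between the controls, and the log2 fold change was 0.03 with a 95% interval from -0.23 to 0.30 (adjusted p = 0.862). Stretches of 150 bases or more in its transcripts match 24 other genes at 97% identity or above, and how such reads were assigned is not given in the sources used here. ACO1 (ENSG00000122729, chromosome 9, 32384603 to 32454769, plus strand), which encodes the cytosolic aconitase that doubles as iron regulatory protein 1, was measured at 85.3 and 82.7 CPM in shCON and 80.1 and 76.4 CPM in ZDHHC15-depleted cells. The depleted samples were slightly lower, with a log2 fold change of -0.10 and a 95% interval from -0.31 to 0.11 (adjusted p = 0.429).

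GPX4 (ENSG00000167468, chromosome 19, 1103926 to 1106791, plus strand) encodes the selenoenzyme that reduces phospholipid hydroperoxides and so limits ferroptosis, a form of death driven by iron and lipid peroxides. It was measured at 290 and 346 CPM in shCON cells and at 207 and 220 CPM in ZDHHC15-depleted cells, so both depleted samples lay below both controls. The mean fell from 318 ± 39.6 to 214 ± 9.29 CPM (SD, n = 2), to 0.673 of the control level. The log2 fold change was -0.57 (SE 0.100, adjusted p = 3.80e-04), lower than that of most tested genes, since 13.3% of them had a lower value.

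**Figure D2:**
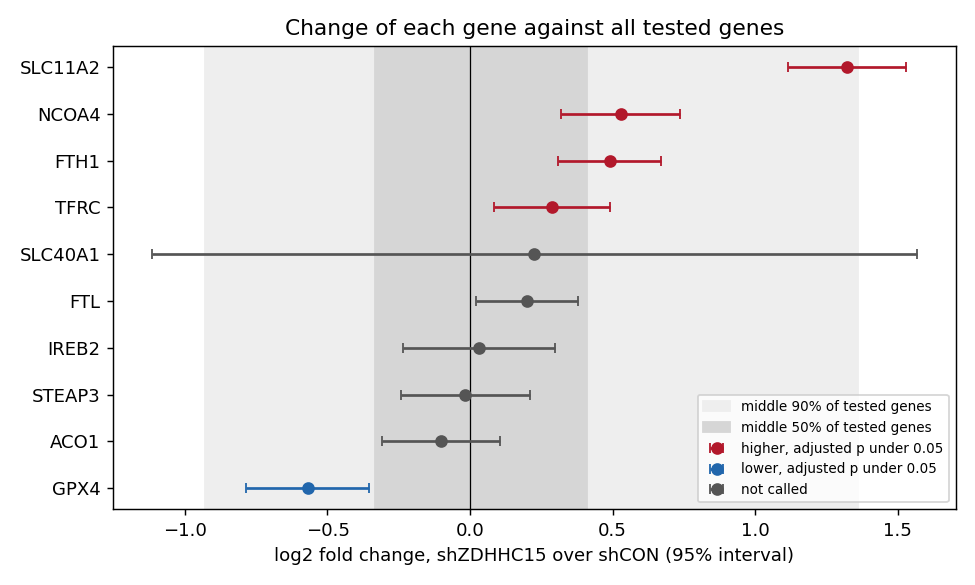
log2 fold change of each gene in shZDHHC15 over shCON cells with its 95% interval. The dark and light bands hold the middle 50% (-0.33 to 0.41) and 90% (-0.93 to 1.36) of all 15817 tested genes. SLC11A2 at 1.32 lies just inside the upper end of the light band, and NCOA4, FTH1 and GPX4 lie outside the dark band.

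Per kb of gene length, the members spanned more than 3 orders of magnitude. In shCON cells FTH1 stood at 1803 ± 110 CPM per kb and FTL at 1335 ± 47.8 (SD, n = 2). GPX4 (157 ± 19.6) and TFRC (149 ± 12.1) came next and did not differ beyond their spread. NCOA4 followed at 32.9 ± 2.70, ACO1 at 11.1 ± 0.243 and STEAP3 at 9.74 ± 0.136. SLC11A2 (6.20 ± 0.136) and IREB2 (5.77 ± 1.14) did not differ beyond their spread, and SLC40A1 was lowest at 0.195 ± 0.150. In ZDHHC15-depleted cells TFRC (182 ± 18.6) stood above GPX4 (106 ± 4.60), and SLC11A2 (15.5 ± 0.652) above ACO1 (10.4 ± 0.348) and STEAP3 (9.63 ± 0.116), both in CPM per kb. These levels use the gene length listed in the file, which merges the exons of all transcripts.

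Other genes of iron biology were counted in 4 lists of 104 genes, of which 92 were tested. By the same limit, 18 of these were higher and 30 lower (52.2%, beside 42.0% of all genes), with a median log2 fold change of -0.07. The lists were chosen with earlier results of these data known. A share above that of all genes, here or in a single list, may therefore come from the choice of genes.

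The list of further transport, storage and sensing genes had 9 higher and 4 lower among 21 tested. That is 61.9%, beside 42.0% of all tested genes, and the median log2 fold change was 0.59. CP, which encodes the plasma ferroxidase ceruloplasmin, was at 17.7 and 14.5 CPM in shCON cells and at 195 and 119 CPM in ZDHHC15-depleted cells. The depleted samples differed between themselves, yet both lay far above the controls (log2 fold change 3.28, SE 0.195, adjusted p = 7.20e-09). HPS3, on the opposite strand, covers 19.4% of the exonic bases of CP and had counts from 471 to 657. HEPHL1, of the same ferroxidase family, rose 2.94-fold to 13.5 ± 1.05 CPM, and CYBRD1, a ferric reductase, 2.77-fold to 6.46 ± 0.130 CPM (SD, n = 2). STEAP1, a relative of STEAP3, rose 2.51-fold and the metal importer gene SLC39A8 2.39-fold. STEAP4, another metalloreductase gene, and LCN2, whose product lipocalin 2 binds iron-carrying siderophores, were chosen after their values were seen because they were abundant. LCN2 rose from 1900 ± 80.9 to 3371 ± 141 CPM (adjusted p = 2.84e-06) and STEAP4 from 421 ± 41.1 to 685 ± 42.6 CPM (SD, n = 2, adjusted p = 3.82e-05). A gene antisense to STEAP4 shares 782 of its exonic bases and had at most 97 counts. On the lower side, EPAS1, which encodes the hypoxia factor HIF-2α, fell by 0.85 on the log2 scale (adjusted p = 6.48e-06). FBXL5, the ubiquitin ligase subunit that marks iron regulatory proteins for degradation, fell by 0.54 (adjusted p = 0.00149) and the prion protein gene PRNP by 0.46 (adjusted p = 6.83e-04).

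Most of the called genes of mitochondrial iron and iron-sulfur cluster assembly were lower. Of 28 tested genes, 2 were higher and 13 lower, with a median of -0.30, while 21.7% of all tested genes were higher and 20.3% lower. Both directions together made up 53.6%, beside 42.0% of all tested genes. Those that rose were the mitoferrin genes, which encode the carriers of iron into mitochondria. SLC25A28 (mitoferrin 2) was at 17.6 and 19.4 CPM in shCON and 41.9 and 39.8 CPM in ZDHHC15-depleted cells (log2 fold change 1.15, adjusted p = 3.99e-06), and SLC25A37 (mitoferrin 1) was at 98.5 and 96.3 CPM against 183 and 189 CPM (log2 fold change 0.93, adjusted p = 1.85e-06). The 13 that fell were NFS1, GLRX5, FDX1, ISCA1, ISCA2, IBA57, NFU1, BOLA3 and ABCB8 of the mitochondrion and CIAO2B, CIAPIN1, NUBP1 and NUBP2 of cytosolic iron-sulfur cluster assembly. ISCA1 fell by 0.74, IBA57 by 0.73 and NFU1 by 0.68 on the log2 scale, all of which act late in mitochondrial cluster assembly.

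Of 17 tested heme genes, 2 were higher and 6 lower, with a median of -0.11. These calls made up 47.1% of the list, near the 42.0% of all tested genes. FECH, which inserts iron into protoporphyrin, rose 1.46-fold to 42.0 ± 0.568 CPM and ALAD, an early enzyme of the pathway, 1.39-fold to 24.7 ± 1.81 CPM (SD, n = 2). ABCG2, a porphyrin exporter gene, fell by 0.78 on the log2 scale, PGRMC1 by 0.58 and HMOX2, the constitutive heme oxygenase, by 0.50.

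Of 26 tested genes of lipid peroxide defence and ferroptosis, 5 were higher and 7 lower, with a median of 0.02. Here 46.2% were called, near the 42.0% of all tested genes. SLC7A11, the cystine importer gene, was at 12.1 and 7.23 CPM in shCON and at 27.9 and 24.0 CPM in ZDHHC15-depleted cells (log2 fold change 1.41, SE 0.188, adjusted p = 3.41e-05). Its antisense gene SLC7A11-AS1, which shares 865 exonic bases, had at most 10 counts in a sample. GCLM and GCLC, the subunits of the enzyme that starts glutathione synthesis, rose 2.21-fold and 2.17-fold. SLC3A2, which encodes the partner chain of SLC7A11, moved the other way, from 1504 ± 137 to 813 ± 51.8 CPM (SD, n = 2, log2 fold change -0.89, adjusted p = 3.46e-06). CHAC1, which encodes a glutathione-degrading enzyme, fell by 1.16 and KEAP1, the inhibitor of NRF2, by 0.64 on the log2 scale.

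Over the 20 genes with the 27-base hairpin, wherever it lay in the transcript, 13 were tested. Of these, 4 were higher (30.8%, beside 21.7% of all genes) and 0 lower (beside 20.3% of all genes). TFRC and FTH1, members already described, are among the 4, and the TFRC call depended on the settings. PDK1 (log2 fold change 0.59, adjusted p = 0.00160) and IPO7 (0.26, adjusted p = 0.0339) are the others. The set is too small to tell these shares from those of all genes. Calls among the 42 genes with the 28-base hairpin were not counted, so the shares do not cover every form of the element.

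The pattern most like that of SLC11A2 over the 4 samples was that of PLSCR1. Among 9406 genes with a mean of at least 10 CPM, its distance was 0.0106 (Euclidean, on log2 CPM centred per gene), followed by FBXO32 (0.0358) and TAPBP (0.0421). Their log2 fold changes were 1.33, 1.29 and 1.32, beside 1.32 for SLC11A2. With 2 samples per group, such a distance mostly compares fold changes, and close matches are likely among so many genes. Whether these genes share a control with SLC11A2 was not tested. The 16 RefSeq promoter windows (GRCh38.p14) around the starts of 9 members were searched on both strands. None held CACGTG (an E-box), the antioxidant response element core or GGAATG (a TEAD motif), which stand in 7.26%, 3.18% and 14.0% of all 35116 windows. At these shares 16 windows are too few to read a lack of matches as a trait of the members. Sequence outside the windows was not searched.

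Markers of the labelled cell type were present, and 5 of 7 were lower in ZDHHC15-depleted cells, beside 20.3% of all tested genes. The summed level of the 7 markers was between 16549 and 17883 CPM in shCON and between 9474 and 9621 CPM in ZDHHC15-depleted samples. KRT8 (log2 fold change -1.62) and KRT18 (-1.58) fell most. KRT7 (-0.99), EPCAM (-0.35) and ERBB2 (-0.24) were the other markers that fell. KRT19 was higher, and CDH1 did not pass (-0.05). The part of this shift in the iron genes was not tested. Markers of other cell types were low. The summed level of 8 macrophage and monocyte markers was between 8.11 and 13.9 CPM, with FCGR3A, AIF1 and MRC1 at 0 counts in all samples. Of those tested, CSF1R was lower, from 8.39 and 10.5 to 3.65 and 5.35 CPM, and CD14 was higher, from 0.494 and 0.296 to 1.34 and 1.12 CPM. The summed level of 8 other leukocyte markers was at most 0.859 CPM and that of 6 hepatocyte markers at most 4.30 CPM. The summed level of 7 fibroblast markers was 5.81 and 7.23 CPM in shCON and 11.5 and 8.61 CPM in ZDHHC15-depleted samples. Nearly all of it was COL1A1, which was higher (5.49 and 7.11 CPM against 11.5 and 8.20 CPM). Each other fibroblast marker had at most 5 counts in a sample.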

How the data were processed

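The authors deposited raw read counts per gene for all 4 samples, not normalized, from total RNA libraries made with the NEBNext Ultra kit. The submitters' processing notes name HISAT2, StringTie, SAMtools and hg38. The counting tool and its use of strand are not given in the sources used here. All 58735 gene identifiers matched GENCODE release 29 by start, end and symbol. All 4 count columns were used and 0 were left out.

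Counts were filtered with filterByExpr (15817 genes), scaled by TMM and tested with edgeR 4.0.16 (R 4.3.3) (glmQLFit and glmQLFTest with the edgeR 4 quasi-dispersion), and p-values were adjusted by Benjamini-Hochberg over all tested genes. Standard errors came from the fold change and F statistic, and 95% intervals used 14.8 degrees of freedom. Of these, 12.8 (median) were prior degrees of freedom taken from the tested genes together. The variance behind each p-value is thus largely shared between genes. Samples within a group differed by more than counting noise (chi-square per degree of freedom 8.32 for shCON and 6.79 for shZDHHC15) and were kept as replicates. Ratios used an exact permutation test. Near-identical copies were sought with BLAST 2.17.0.

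The alternatives tried were other scalings (upper-quartile factors, size factors from DESeq2, or library size only), other tests (the Wald test of DESeq2 1.42.0, edgeR with its legacy quasi-dispersion), other filters (none, or a minimum of 10 counts per sample), a replicate block, added pseudogene counts, and each sample left out in turn. The members and lists were chosen with earlier results of these data known. The genes named beside the 10 members are the up to 3 largest changes in each direction per list that passed the test, and any others that passed with a log2 fold change of at least 1 in size, except where the text says otherwise. The genes most like SLC11A2, the member with the largest change, and the most abundant pseudogene were taken by rule. The hairpin pattern with 1 further unpaired base was chosen after seeing the data. The result of 1 marker list is not reported here.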

Additional observations from a re-analysis of the deposited data

How the results depend on the processing

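Under the other scalings, filters and tests, between 3 and 5 members were higher and 1 was lower. Of the other iron genes, 18 to 20 were higher and 22 to 34 lower. Over all genes, the calls ran from 4632 of 30168 tested without a filter to 7225 of 15817 with a replicate block. The background share thus moved with the setting, and a steady count of members is no steady relation to it. SLC11A2, FTH1, NCOA4 and GPX4 kept their direction and their call under all 8 other scalings, filters and tests and with each sample left out. TFRC lost its call under 2 of these 8 and without either of 2 samples. STEAP3 turned to 0.058 with library size only. With a sample left out, SLC40A1 ranged from -1.20 to 1.31 and IREB2 from -0.17 to 0.22, and both changed sign. In such fits the lone sample of a group is assumed to vary like the other group. The FTH1:FTL difference ranged from 0.25 to 0.34 and the TFRC:FTH1 difference from -0.35 to -0.06 with a sample left out. Library size only moved the median log2 fold change of all genes from 0.02 to 0.09, so changes of that size depend on the scaling.

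Samples that share a replicate number did not deviate together over the tested genes as a whole (r = 0.0344 over 15817 genes). With 2 samples per group this cannot exclude shared handling, so whether the number pairs them stays unknown. With a replicate block, 5 members were higher and 1 lower, FTL being the added call (log2 fold change 0.20, adjusted p = 0.0351), no other member call changed, and 7225 genes were called over all, beside 6644 without it. SLC40A1 had between 7 and 30 counts in a sample and its samples differed within each group, whereas the other 9 members had at least 742 counts in each sample.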
